A study of Mus musculus with 2 samples.

Results

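The exon peaks described here are the IRF4 peaks whose summit lay inside an exon of a protein-coding gene, in coding sequence or in an untranslated region (UTR), and over 1 kb from every protein-coding transcript start. They were chosen by position alone, with GENCODE vM1 transcripts on the mouse build mm9. They numbered 677 of the 27671 peaks in the mm9 list, a share of 2.45% (Wilson 95% interval 2.27 to 2.64). Of these, 319 lay in coding exons, 334 in 3′ UTRs and 24 in 5′ UTRs. The 12 summits annotated as both coding and 3′ UTR in different transcripts, and the 8 annotated as both coding and 5′ UTR, were counted as coding. A further 1252 exonic summits lay within 1 kb of a start and were not members.

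Binding of IRF4 was mapped by ChIP-seq, the sequencing of chromatin DNA recovered with an antibody, in CH12.LX, an immortalized mouse B-cell lymphoma line of strain B10.H-2aH-4bp/Wts. The samples form 1 group of 2 biological replicates, for which the labels give no treatment. The mm9 list pools both replicates, and no control is named as an input to it, so its peaks carry 1 signal value each and no replicate values. That signal is the value of the authors' peak caller on a scale that is not stated, and read depth is unknown.

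IRF4, an interferon regulatory factor, directs germinal centre and plasma cell programmes in B cells. It binds DNA weakly alone, and at many sites it pairs with an ETS factor such as PU.1 or Spi-B on an ETS-IRF composite element (EICE), or with an AP-1 dimer of BATF and JUN on an AP-1-IRF composite element (AICE). A tandem of IRF sites is the interferon-stimulated response element (ISRE). A site inside an exon has to share its bases with the transcript, and in coding sequence with the codons.

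The following stretches of mm9 reference sequence show what the strongest exon peaks with a composite element look like. Each holds 30 bases, 5′ to 3′ on the strand of the element, with the element in capitals. In the EICE, GGAA is followed by GAAA with 2 bases between. The first group has the 8 strongest exon peaks with an EICE.
Evi2a, chr11:79340614-79340643: gcacgaagaaGGAACTGAAAaactcaacta
Cyp51, chr5:4081711-4081740: tgtagcaagaGGAACTGAAActccgttaca
Ppp1r12b, chr1:136769423-136769452: tgaagcaaagGGAAGTGAAAccccacagac
Cmya5, chr13:93864276-93864305: cagtgaaaacGGAAGTGAAAcaggagtcca
Parp1, chr1:182518073-182518102: agaagatggaGGAAGTGAAAgcggccaacg
BC024139, chr15:75949937-75949966: aggagtttggGGAACTGAAActctctttgg
Pygb, chr2:150656955-150656984: cacttcaggaGGAACTGAAActagctaagc
Rel, chr11:23653253-23653282: taaagaaaaaGGAAGTGAAAgaagctatta

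The elements of Ppp1r12b, Cmya5, Parp1 and Rel lay in coding exons and those of Evi2a, Cyp51 and Pygb in 3′ UTRs, while that of BC024139 crossed the edge of its last exon. All 8 read in the direction of the gene, and all had GT or CT between their GGAA and GAAA parts. Evi2a, Cyp51, Ppp1r12b, Cmya5, BC024139 and Rel lie on the minus strand of mm9, Parp1 and Pygb on the plus strand. The second group has the 4 strongest exon peaks with an AICE, the first pair with the IRF and AP-1 sites adjoining and the second pair with 4 bases between them. All 4 lay in 3′ UTRs, with signals of 689.9 in Synrg, 338.2 in Dnmt3l, 313.8 in Mmp10, a matrix metalloproteinase gene, and 139.0 in Nrp1, the neuropilin 1 gene. The elements lay in Nrp1 on the minus strand of mm9 and the others on the plus strand.
Synrg, chr11:83857007-83857036: gcatgtattGAAATGACTCAtgttgcattc
Dnmt3l, chr10:77526085-77526114: tcctctttaGAAATGAATCAccataagatg
Mmp10, chr9:7510111-7510140: agatgtcTTTCATAATGAGTCAcaaagcat
Nrp1, chr8:131028485-131028514: ttttttttTTTCTTTATGAGTCAttggaag

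Exons away from starts carried peaks about as densely as introns. Coding exons held 10.98 peaks per Mb of coding sequence (Poisson 95% interval 9.81 to 12.3) and 3′ UTRs 13.3 (11.9 to 14.8), beside 12.33 in introns (12.1 to 12.6) and 7.49 in intergenic sequence (7.36 to 7.63). The 24 peaks in 5′ UTRs gave 38.5 per Mb (24.6 to 57.2) over only 0.624 Mb. The interval of coding exons ends just under the intron value and that of 3′ UTRs includes it, while those of all the genic classes lie above the intergenic one. Peaks are not replicates of a condition, and these intervals cover counting error only. The lengths of sequence leave out assembly gaps but make no allowance for repeats or for how well reads map in each class.

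**Figure D1:**
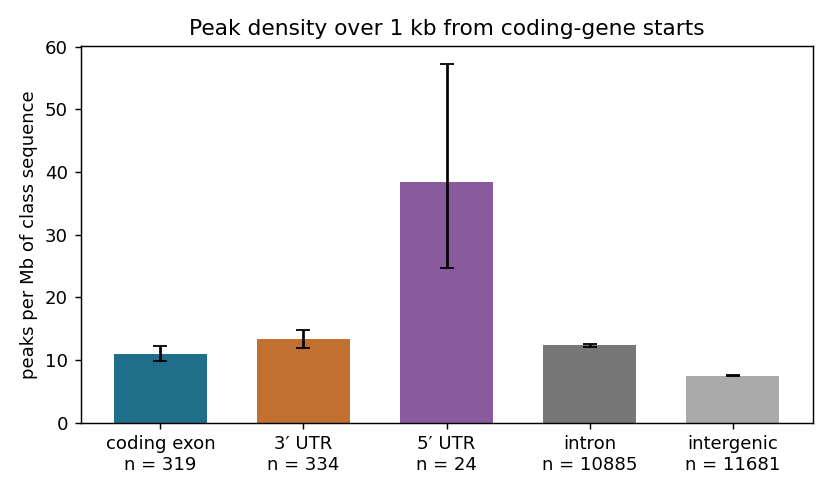
Peaks per Mb of each kind of sequence over 1 kb from protein-coding starts, with bars for the density and lines for Poisson 95% intervals. Coding exons (10.98) and 3′ UTRs (13.3) stand near introns (12.33) and above intergenic sequence (7.49), and the 5′ UTR value rests on 24 peaks.

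The place of the members in their genes is described here by class, without the share of each class's sequence in the same places. The median distance to the nearest protein-coding start was 12347 bp, and the range ran from 1041 to 350904 bp. Of the 3′ UTR summits, 99.4% were in the last exon and 66.8% lay within 1 kb of a transcript end. Coding exons with a summit had a median length of 203 bp, and 52.4% of coding summits lay within 50 bp of an exon boundary. Only 21.6% of coding peaks lay wholly in exons, against 90.1% of 3′ UTR peaks. The median peak width of 330 bp exceeds that coding exon median, while exons with a 3′ UTR summit had a median of 2623.5 bp. With no such background, a lean of summits to exon boundaries or transcript ends cannot be read from these shares. Of all 677, 50 lay within 1 kb of a start of another transcript type, with a median signal of 57.4 against 68.6 for the other 627. The strongest of these 50 was the Evi2a peak (588.8). Just inside the 1 kb limit were the 3′ UTR peaks of Evi2a at 1041 bp (signal 588.8) and Zcchc13 at 1046 bp (65.1). Just outside were the coding peaks of 2310033P09Rik at 993 bp (42.2) and B3gat2 at 980 bp (42.7). Chromosome 11 held 105 exon peaks, 15.5% of them (Wilson interval 13.0 to 18.4), beside 11.2% of intron peaks. Its share of exon sequence was not computed, so an excess cannot be read from this.

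Exon peaks were slightly weaker than intron peaks. Their signal had a median of 68.2 and ran from 41.5 to 689.9, beside a median of 73.6 for 10885 intron peaks and 70.1 for the whole list. In coding exons the median was 66.8 and the highest value 528.1, in 3′ UTRs 69.8 and 689.9, and in 5′ UTRs 63.6 and 288.2. The highest intron signal was 1554.3, above every exon peak. Lower and upper quartiles overlapped widely, at 50.6 and 100.1 in coding exons, 53.3 and 117.3 in 3′ UTRs, 49.3 and 88.1 in 5′ UTRs and 52.7 and 124.9 in introns. In a linear regression of log2 signal on class with errors clustered by 1 Mb block, exon peaks differed from intron peaks by -0.13 (95% interval -0.20 to -0.07, two-sided p = 3.1e-05, n = 677 and 10885 peaks), a ratio of 0.911. Coding exon peaks differed from intron peaks by -0.18 (-0.27 to -0.09, p = 5.5e-05, n = 319 and 10885 peaks). For 3′ UTR peaks the difference from introns was -0.08 (-0.17 to 0.01, p = 0.078, n = 334 and 10885 peaks). Between coding exons and 3′ UTRs it was -0.10 (-0.23 to 0.03, p = 0.12, n = 319 and 334 peaks). Width had a median of 330 bp in each class, with a log2 difference from introns of 0.03 (p = 0.067, n = 677 and 10885 peaks). The sequence within 50 bp of a summit was richer in G and C, with a mean of 50.9% against 47.9% in introns, a difference of 2.99 percentage points (2.30 to 3.69, p = 2.3e-17, n = 677 and 10885 peaks).

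**Figure D2:**
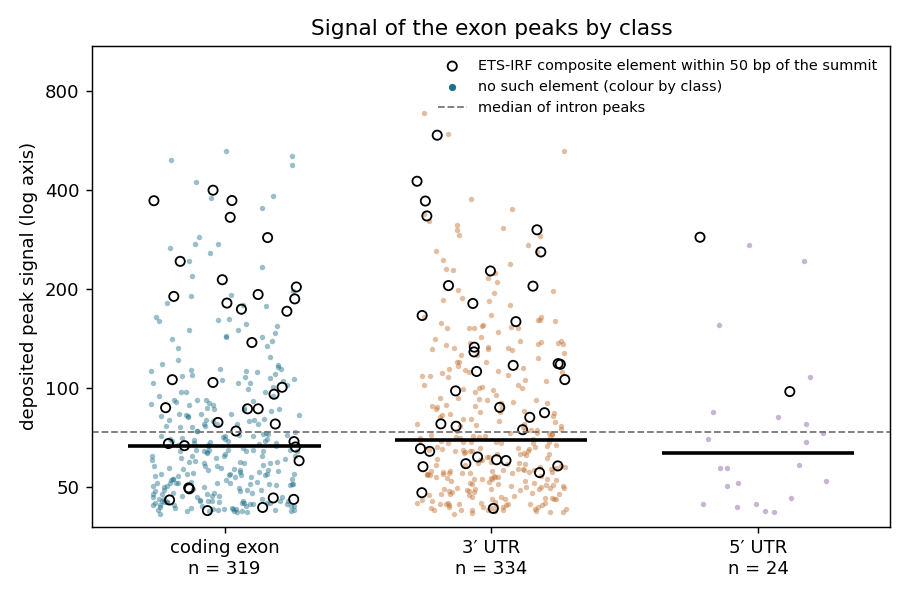
Deposited signal of every exon peak on a log axis, by class, with a black line at each class median (66.8, 69.8 and 63.6) and a dashed line at the intron median of 73.6. Open circles mark peaks with an EICE within 50 bp of the summit, which are spread over the range but make up 21 of the 68 strongest exon peaks.

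The strongest coding exon peaks fell in genes of many functions. The highest were in 1700034F02Rik (exon 5 of 12, signal 528.1), Dnajc16, which encodes a DnaJ family protein (509.5), Dnaic1, an axonemal dynein intermediate chain (494.9), and Cdc42bpb, a kinase that acts downstream of Cdc42 (479.3). These 4 held no EICE, AICE or ISRE within 50 bp of the summit. Rnf213, a ubiquitin ligase, followed with 423.0, its peak lying wholly in an exon of 1150 bp, and held a PU.1 site but no IRF element. Ppp1r12b, a regulatory subunit of myosin phosphatase, had 400.6 in exon 12 of 24, with an EICE. Ctsh, a lysosomal cysteine protease, had 384.5 with a summit in an exon of 32 bp, so that only 11.6% of the peak was exonic. Kif5c, a kinesin heavy chain, had 378.2. Cmya5, a large muscle protein, had 372.7 within a coding exon of 9310 bp, and Parp1, the poly(ADP-ribose) polymerase of DNA repair, had 372.2 in exon 10 of 23, both with an EICE.

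In 3′ UTRs the strongest peak of all the exon peaks lay in Synrg, which encodes an AP-1 adaptor binding protein of membrane traffic (chromosome 11, 83856860 to 83857169, signal 689.9). It ranked 159 in the whole list. Erg, an ETS transcription factor gene, followed with 594.8 and held none of the 14 motifs searched. Evi2a, a membrane protein gene, had 588.8 with an EICE and an ISRE, and Pik3r3, a regulatory subunit of PI3 kinase, had 526.6 with an AP-1 site. Next came Cyp51, the lanosterol demethylase of cholesterol synthesis (426.5), Runx2, a Runt family transcription factor (377.8), BC024139 (371.3) and St8sia4, a polysialyltransferase (351.6). The peaks of Cyp51 and BC024139 held an EICE, that of Runx2 an AP-1 site and that of St8sia4 an ISRE. The strongest of the 24 peaks in 5′ UTRs were those of E330013P04Rik (288.2, with an EICE), Setdb2, a SET domain protein gene (272.2), BC030307 (244.4), 1700081L11Rik (155.8), Svil, the supervillin gene (108.4), and Fyco1, an adaptor of autophagosome transport (97.8).

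Motifs were concentrated at the summits. Matches within 50 bp of the summit were counted on both strands and set beside a window of the same size centred 300 bp to the right. Coding exons with a summit had a median length of 203 bp, so for many coding summits the flanking window lay outside the exon. There the contrast also compares exon with other sequence. An EICE was present at 76 summits of the 677 (11.2%, Wilson interval 9.06 to 13.8) and in 3 flanking windows (0.443%), and over all peaks of the list it was present in 8.68%. An AP-1 site (TGANTCA) was present at 84 summits (12.4%) and in 17 flanks, with 16% over all peaks. The word GGAAGTGA, which can form part of an EICE, was at 51 summits against 2 flanks (6.81% over all peaks). An ISRE was at 41 against 7 (5.79% over all peaks), and so was the PU.1 site GAGGAAGT at 41 against 7 (4.93%). In exact McNemar tests over the paired windows, adjusted over 14 motifs, the EICE gave an adjusted exact p of 5.6e-19, AP-1 1.1e-11, GGAAGTGA 2.2e-12, and the ISRE and PU.1 site 1.7e-06 each. The EICE lay at a median of 16.5 bp from the summit.

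Most of the other motifs showed the same contrast. The adjoining AICE was at 7 summits and no flank (adjusted exact p = 0.018, 1.13% over all peaks), and the AICE with 4 bases between at 8 and none (0.0099, 1.12%). The NF-kB site was at 39 summits against 13 flanks (6.1e-04, 7.02%), the RUNX site TGTGGTTT at 18 against 4 (0.0061, 2.79%), and the E-box CAGCTG at 75 against 40 (0.0013, 8.72%). The CTCF core was at 18 against 1 (1.8e-04, 1.57%) and the ETS site CCGGAAGT at 10 against none (0.003, 1.21%). Genomic matches of both were denser in coding exons than in introns (CTCF 19.5 against 6.03 per Mb, ETS 32.9 against 5.87). Those of the EICE, ISRE and AP-1 site were sparser there. For the octamer ATTTGCAT (10 against 4, exact p = 0.19, 2.61% over all peaks) and the EBF1 site (7 against 3, exact p = 0.34, 1.15%) no difference was detectable at these numbers. With windows of 25 bp either side, the ETS site (adjusted exact p = 0.29) and the E-box (0.097) no longer passed.

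**Figure D3:**
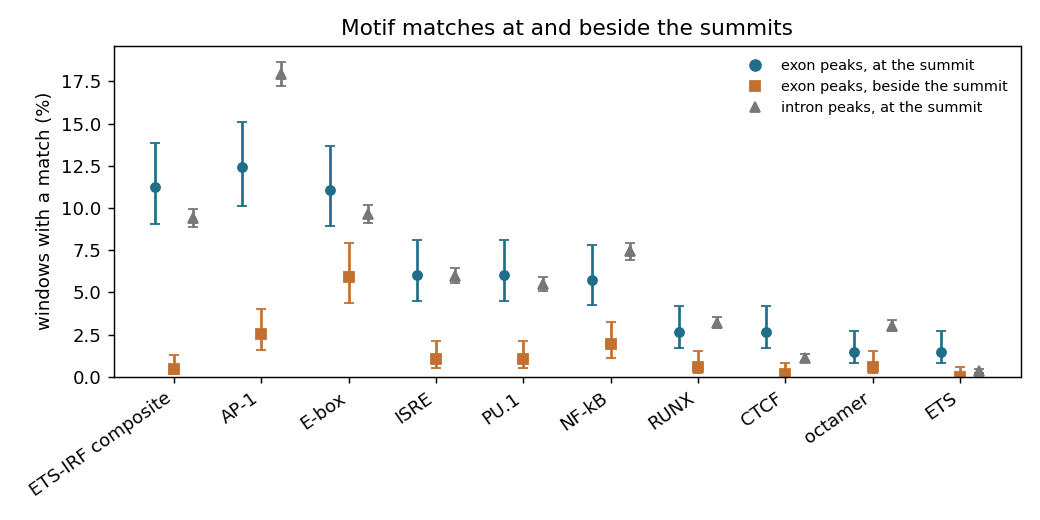
Percent of windows with a match for 10 motifs, at the summits of the 677 exon peaks (circles), in windows centred 300 bp to their right (squares) and at the summits of 10885 intron peaks (triangles), with Wilson 95% intervals. Exon summits stand above their flanks, though for the octamer the intervals overlap and no difference was detectable. For AP-1 the exon summits stand below intron summits (12.4% against 17.9%).

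Against intron peaks, exon peaks had fewer AP-1 sites and more ETS and CTCF sites. AP-1 was at 12.4% of exon summits and 17.9% of intron summits, an odds ratio of 0.648 (0.514 to 0.816, adjusted p = 0.0013, logistic regression clustered by 1 Mb block, 11 motifs tested, n = 677 and 10885 peaks). The ETS site was at 1.48% against 0.312% (odds ratio 4.78, 2.36 to 9.71, adjusted p = 1.6e-04) and the CTCF core at 2.66% against 1.13% (2.39, 1.42 to 4.03, adjusted p = 0.004, n = 677 and 10885 peaks). The ETS and CTCF counts, 10 and 18 exon peaks, are small. With the GC content of the window as a covariate the CTCF odds ratio was 1.38 (adjusted p = 0.39, n = 677 and 10885 peaks). The EICE was at 11.2% against 9.39%, which did not pass (1.22, 0.957 to 1.56, adjusted p = 0.23), but it passed with GC content (1.35, adjusted p = 0.046) or signal (1.34, adjusted p = 0.049) as a covariate (n = 677 and 10885 peaks). The remaining 7 motifs did not pass, among them the octamer at 1.48% against 3.004% (0.484, adjusted p = 0.066, n = 677 and 10885 peaks). The octamer passed within 100 bp (0.487, adjusted p = 0.014) and with signal as a covariate (0.478, adjusted p = 0.049), and the NF-kB site with GC content (0.589, adjusted p = 0.015), each over n = 677 and 10885 peaks.

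Within the exon peaks, signal went with the IRF elements. The 76 peaks with an EICE had a median signal of 99.5, against 65.4 for the other 601, a log2 difference in means of 0.58 (0.35 to 0.81, p = 8.7e-07, n = 76 and 601 peaks). Peaks with an AP-1 site had a median of 82.2 against 66.8 (log2 difference 0.27, 0.06 to 0.48, p = 0.012, n = 84 and 593 peaks). An EICE was at 34 of the 170 strongest exon peaks, from 108.2 up (20%, 14.7 to 26.6), and at 9 of the 169 weakest, up to 51.5 (5.33%, 2.83 to 9.81). Of the 68 strongest, from 187.2 up, 21 held an EICE (30.9%, 21.2 to 42.6). Neither an AP-1 site nor an EICE, AICE or ISRE was present at 30 of these 68 (44.1%). That share was lower than over all exon peaks (487 of 677, 71.9%) and among the weakest (139 of 169, 82.2%).

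To see how often a match in an exon carries a peak, all matches in the mm9 genome over 1 kb from starts were counted, an analysis added after the motif shares had been seen. Of 1920 EICE matches in coding exons, 41 had a summit within 50 bp (2.14%, 1.58 to 2.88). The share was 35 of 2691 in 3′ UTRs (1.30%, 0.937 to 1.80), 1038 of 113569 in introns (0.914%, 0.860 to 0.971) and 0.507% between genes. In 5′ UTRs 1 of 44 had one (2.27%, 0.402 to 11.8). EICE matches were sparser in coding exons, at 66.1 per Mb against 128.6 in introns. The odds of a summit at a coding match were 2.37 times those at an intron match (1.73 to 3.23, adjusted p = 4.0e-07 over 6 tests, n = 1920 and 113569 matches), and at a 3′ UTR match 1.43 times (1.011 to 2.018, adjusted p = 0.064). The coding difference kept its call with the GC content of the window as a covariate (1.54, adjusted p = 0.025) and with the 2 letters inside the element (1.57, adjusted p = 0.022), over n = 1920 and 113569 matches. It was lost with both together, at 0.970 (0.689 to 1.37, adjusted p = 0.86, n = 1920 and 113569 matches).

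AP-1 matches went the other way, though like the EICE they were sparser in coding exons (225.4 per Mb against 320.2 in introns). In coding exons 28 of 6548 had a summit (0.428%) and in introns 2098 of 282727 (0.742%), an odds ratio of 0.574 (0.390 to 0.846, adjusted p = 0.015, n = 6548 and 282727 matches), which was 0.410 with GC content as a covariate. In 3′ UTRs the ratio was 0.915 (0.681 to 1.23, adjusted p = 0.67, n = 7361 and 282727 matches). For the ISRE it was 1.74 in coding exons (1.06 to 2.86, adjusted p = 0.058, n = 2921 and 159890 matches). ETS matches were denser in coding exons, at 32.9 per Mb against 5.87 in introns, and had a summit in 6 of 956 (0.628%) against 33 of 5182 (0.637%). In 3′ UTRs, at 9.74 per Mb, 6 of 245 ETS matches had a summit (2.45%, 1.13 to 5.24), a difference that was not tested. CTCF core matches had a summit in 8 of 565 in coding exons (1.42%) and 9 of 266 in 3′ UTRs (3.38%). In introns the CTCF count was 124 of 5324 (2.33%), and these shares were not tested either.

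**Figure D4:**
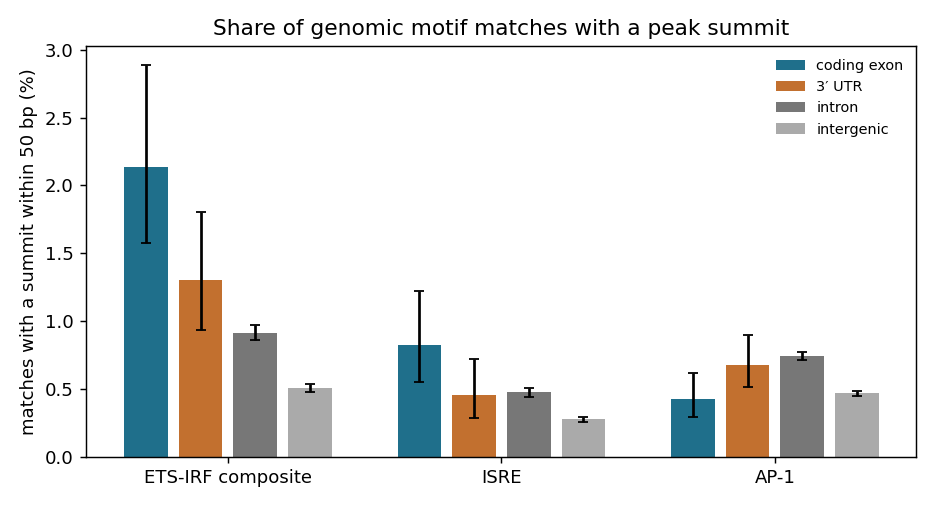
Percent of all genomic matches of 3 motifs with a peak summit within 50 bp, by the sequence that holds the match, with Wilson 95% intervals. The 5′ UTRs, with 44 EICE matches, are not drawn. Of the 4 classes drawn the EICE share is highest in coding exons (2.14%), and the AP-1 share there (0.428%) is below that of introns (0.742%), without allowance for GC content.

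EICE matches with a summit differed in the letters between GGAA and GAAA. These letters were looked at because GT stood at 24 and CT at 18 of 73 EICE sites in the exon peaks (the sequences of 3 sites on chromosome 18 are not reported here), so the shares that follow are a description. Over coding, 3′ UTR and intron matches, those with CC had a summit in 7.26% (27 of 372), with CT in 6.304% (290 of 4600) and with GT in 4.48% (351 of 7840), against 0.0817% with AG (24 of 29362) and 0.1003% with AA (18 of 17955). Within coding exons, GT matches had a summit in 13 of 124 (10.5%), CT matches in 11 of 161 (6.83%) and matches with other letters in 17 of 1635 (1.04%). In 3′ UTRs the shares were 10.6%, 10.1% and 0.563%, and in introns 4.296%, 6.198% and 0.435%. CT made up 8.39% of coding matches and 3.82% of intron matches, and GT 6.46% and 6.70%.

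In coding exons the EICE of the members mostly ran with the gene and in 1 reading frame. Of the 37 coding members with an EICE, it lay on the sense strand in 30. In 28 of the 34 whose element lay inside the exon, its first base in the direction of the gene was the last base of a codon. On the sense strand that placement reads as a glutamate codon, a codon ending in G and a lysine codon. A lean the same way is present without a peak: of the 1817 coding EICE matches with no summit, 73.8% were sense and 47.99% started at codon position 3. Among the 40 with a summit, 82.5% were sense (68.1 to 91.3) and 72.5% started at position 3 (57.2 to 83.9). Sense matches at position 3 had a summit in 27 of 751 (3.60%, 2.48 to 5.18), against 5 of 373 at position 1 (1.34%) and 1 of 250 at position 2 (0.4%). With GT between, 11 of 55 sense matches at position 3 had a summit (20%, 11.6 to 32.4), against 2 of 62 GT matches in the other directions and positions (3.23%, 0.889 to 11.02). With CT between, the shares were 5 of 61 (8.197%, 3.55 to 17.8) and 6 of 91 (6.59%, 3.06 to 13.6). With other letters they were 11 of 635 (1.73%, 0.970 to 3.08) and 5 of 953 (0.525%, 0.224 to 1.22). The pattern was noticed in these peaks and was not tested.

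**Figure D5:**
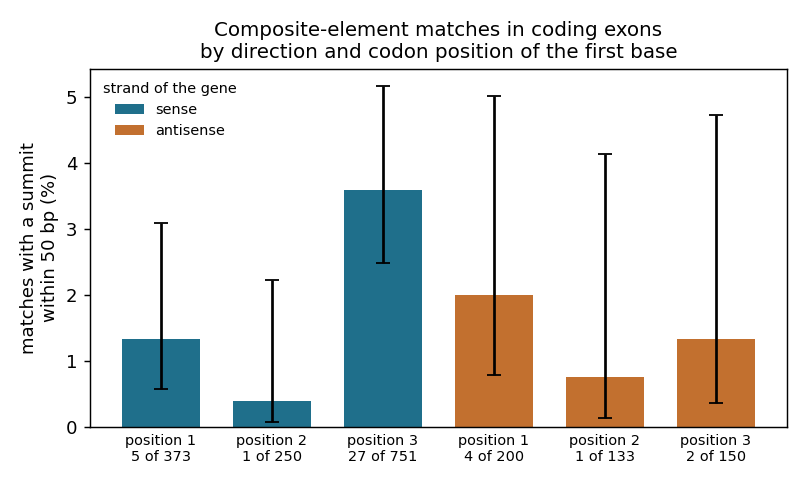
Percent of EICE matches in coding exons with a summit within 50 bp, by strand relative to the gene and by the codon position of the first base in the gene's direction, with Wilson 95% intervals and the counts under each bar. Sense matches at position 3 have the highest share (27 of 751), and the antisense bars rest on 1 to 4 matches with a summit.

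The exon peaks belonged to 629 of 22202 protein-coding genes (2.83%), and 3 peaks lay in exons of 2 genes. For 248 of these genes a single exon peak was the only peak inside the gene. Of 373 with other peaks besides, an exon peak was the strongest in 119. The genes with most exon peaks were Usp6nl, a GTPase-activating protein gene of endocytosis, Cybasc3, a cytochrome b561 family gene, Itsn1, an endocytic scaffold, and Il6ra, a receptor chain for interleukin 6, with 3 each. Synrg was the first by signal of the 43 genes with 2. The strongest exon peak of Usp6nl had a signal of 194.6, that of Cybasc3 179.5 and that of Itsn1 152.3. All 3 exon peaks of Il6ra lay in its last exon (85.6 and 63.1 in the 3′ UTR, 48.6 in coding sequence), while the strongest peak anywhere in that gene had 599.8.

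Gene lists were described by counts alone, for B cell genes and for glycolysis, ribosomal and neuronal genes beside them. Of 257 listed genes that matched the annotation, 14 had an exon peak. Among 16 genes listed as IRF4 targets in B cells there were 4 (25%, Wilson interval 10.2 to 49.5), beside 2.83% of all protein-coding genes. A peak somewhere inside the gene was present in 14 of the 16 and in 6123 of all 22202. Of those 6123 genes, 629 had an exon peak. The list was chosen with earlier results of these data known, and its share rests on 4 genes. Irf4 itself had a coding peak in exon 8 of 9 (signal 82.7), Zbtb46, a zinc finger factor gene, a 3′ UTR peak (66.1), Prdm1, which encodes the plasma cell factor Blimp-1, a 3′ UTR peak (56.0), and Spib, the ETS partner Spi-B, a coding peak (47.0). None of these 4 held an EICE, AICE or ISRE. Of 38 B cell transcription factor genes 5 had one, the strongest being Irf5 (3′ UTR, 159.6, with an EICE), followed by Runx1 (72.6), Irf2 (60.5, with an ISRE), Nfatc1 (50.3) and Spib. Rel, the NF-kB subunit c-Rel, was the only one of 24 NF-kB genes, with 331.3 and the EICE shown above in coding exon 4 of 10.

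The remaining lists gave Usp18, an interferon-induced deISGylase, as 1 of 26 interferon-stimulated effectors (141.1 and 54.1), Hk2, a hexokinase, as 1 of 19 glycolysis genes (124.7), and Il6ra and Il10ra, the interleukin 10 receptor, as 2 of 22 cytokine and costimulatory receptors. Cd22, an inhibitory coreceptor of B cells, was 1 of 29 B cell receptor signalling genes (50.003, with a CTCF core). No exon peak was found in 20 antigen presentation, 13 chromatin modifier, 36 ribosomal protein or 23 neuronal genes, and a count of 0 still allows shares of up to 16.1%, 22.8%, 9.64% and 14.3% (Wilson). Exon length was not matched between lists.

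The replicates could be set beside the exon peaks only by gene symbol, since the replicate lists are on mm10 and coordinates were not converted. Of 618 host genes matched to a GRCm38 gene, 594 (96.1%) had a summit of the optimal list made by the irreproducible discovery rate (IDR) in the gene, and 579 (93.7%) one of the stricter conservative list. These genes were chosen for a peak from the same replicates, and a summit anywhere in the gene counted. High shares were therefore built in, and they do not show whether the exon peaks themselves recur. For 122 genes with a single peak on each build, 118 had a replicate peak within 100 bp in both replicates. Their signal was a median of 23.1 in replicate 1 and 33.9 in replicate 2, higher in replicate 2 in 105 of 118, with a median log2 ratio of 0.52 (SD 0.54). Among such genes named above, Cyp51 had 115.7 and 144.3, Parp1 99.4 and 119.8, and Ctsh 83.3 and 120.7 in replicates 1 and 2. BC024139 had 94.1 and 114.9, Dnmt3l, a DNA methyltransferase cofactor gene, 93.2 and 133.0, and Pygb, a glycogen phosphorylase gene, 56.7 and 85.0. All 6 were higher in replicate 2, and the signal scale is not stated for either list.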

How the data were processed

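The authors deposited peak lists in narrowPeak format. Column 7 holds a signal value from the authors' peak caller, whose scale is not stated, and column 10 the summit's offset from the start in column 2. Per the deposited descriptions, the mm9 list came from the mm9 alignments of both replicates with no control among its inputs, and the mm10 lists from each replicate or from both by IDR. Caller, aligner and read totals were not given in the sources used here. Nothing in the labels speaks of separate cultures.

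Exons, UTRs and starts came from GENCODE vM1 and sequence from NCBIM37 (mm9), on 20 chromosomes. Signal, width and GC content were compared by linear, and motif presence by logistic, regression with errors clustered by 1 Mb block, two-sided, with Benjamini-Hochberg adjustment and a threshold of 0.05. Motifs held by at least 10 exon peaks were tested against introns. Both strands were searched, and motifs may overlap. The EICE was GGAA and GAAA with 2 bases between, the ISRE 2 copies of GAAA with 2 bases between. The AICE was GAAA adjoining TGANTCA, or TTTC and TGANTCA with 4 bases between. The NF-kB and CTCF patterns were core consensus letters. Genomic matches were classed by their middle base and include matches in repeated sequence.

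Members, gene lists, motifs and tests were chosen with earlier results of these data known. Named were the 10 strongest coding, 8 strongest 3′ UTR and 6 strongest 5′ UTR peaks, the 5 genes with most exon peaks, the 8 strongest with an EICE and 4 with an AICE, the strongest of each gene list, and 2 peaks on each side of the 1 kb limit. Other listed genes with an exon peak, and the genes in the replicate comparison, were named after their values were seen. In 60 simulated sets of 11562 exon and intron peaks, a log2 difference of -0.2 was recovered as -0.1996 on average and an odds ratio of 0.6 as 0.5943. Intervals held them in 96.67% and 95% of sets, and 3.33% of sets with no effect were called. The sets with no effect had no variation shared within blocks, so that rate does not test the clustering. The simulated motif was about as common as the AP-1 site and far commoner than the ETS and CTCF sites. Simulated signal was normal with no lower limit, unlike the deposited values. Python 3.11.15, numpy 2.4.6, pandas 2.3.3, scipy 1.17.1, statsmodels 0.14.6, matplotlib 3.10.9 and samtools 1.23.1 were used.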

Additional observations from a re-analysis of the deposited data

How the results depend on the processing

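The lower signal of exon against intron peaks stayed past the threshold under all 8 alternatives, between -0.09 (GC content as a covariate) and -0.15 (over 500 bp from starts). The number of exon peaks was 605 to 723 with other distances, starts or peak midpoints and 323 above the list's median signal. The odds ratio of ETS sites lost its call within 25 bp (4.4, adjusted p = 0.1, n = 677 and 10885 peaks) and above the median signal (2.85, 0.18). That of CTCF lost it within 25 bp (2.25, 0.1) and with GC content (1.38, 0.39). That of the EICE gained a call with GC content (1.35, 0.046) and with signal (1.34, 0.049), that of the octamer within 100 bp (0.487, 0.014) and with signal (0.478, 0.049), and that of NF-kB with GC content (0.589, 0.015). AP-1 kept its call under all 7 alternatives. Among motifs without a call the odds ratio crossed 1 for the ISRE (0.757) and GGAAGTGA (0.995) within 25 bp and for the E-box with GC content (0.921).

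Alternatives for genomic matches were added after seeing the data. The EICE odds ratio in coding exons was 1.54 with GC content, 1.57 with the letters between, 2.20 without chromosomes 11 and 16, 2.34 for peaks above the median signal, and 0.970 with GC content and letters together, where the call was lost. That in 3′ UTRs was 1.54 with the letters (adjusted p = 0.031, n = 2691 and 113569 matches) and 1.26 with both. The cause was not tested. Leaving out a replicate was not possible, since the mm9 list pools both. No paired analysis was possible because there is 1 group.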
